A study of Mus musculus with 2 samples.

Results

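Chromatin accessibility was described at 9 genes for transcription factors that mark the progenitor domains of spinal interneurons, or the neurons those domains give rise to. The genes were Dbx1, Dbx2, Evx1, Evx2, En1, Vsx1, Sim1, Gata2 and Gata3. An interval of open chromatin was assigned to one of these genes when the nearest start of a protein-coding transcript belonged to it. Which gene an interval acts on was not tested. In total, 126 of the 119502 intervals were assigned by nearest start, 9 over such a start (TSS intervals) and 117 over none (distal intervals). Only GENCODE starts of protein-coding transcripts were used, so a distal interval can cover a RefSeq start or the start of a noncoding gene.

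The assay was ATAC-seq, which reads open DNA from the sites where a transposase can insert adapters, and there was 1 group of 2 samples. The cells were neural progenitors made from mouse embryonic stem cells carrying the Olig2-2A-mKate2 reporter, in which the Olig2 gene also drives a red fluorescent protein. Treatment was 100 nM SAG, which activates the Sonic Hedgehog pathway, together with 100 nM retinoic acid, and cells were taken at day 5. Live mKate2-positive cells were sorted, and 50000 went into each Omni-ATAC reaction. The sort targets motor neuron (pMN) progenitors, but per the study reporter-positive cells also hold newly formed motor neurons and some cells with NKX2.2, a marker of the p3 domain. The labels do not say whether the replicates were separate differentiations, so the spread between them may be technical. The libraries held 31876165 and 31672240 counts over all intervals.

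Sonic Hedgehog from the ventral midline divides the neural tube into the p3, pMN, p2, p1 and p0 progenitor domains, from ventral to dorsal. Homeodomain factors of neighbouring domains repress one another, which keeps each domain to its own program. Dbx1 and Dbx2 are homeodomain factors of the progenitors dorsal to p2, with Dbx1 in p0 and Dbx2 extending into p1. Evx1 and Evx2 mark V0 interneurons that come from p0, and En1 marks V1 interneurons that come from p1. Vsx1 is a homeodomain factor of p2 cells as they begin to differentiate, Gata2 and Gata3 are zinc finger factors of V2b interneurons, and Sim1 is a basic helix-loop-helix factor of V3 interneurons, which come from p3. None of the 9 is a marker of the pMN domain for which the cells were sorted.

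The sequences below are printed so that the DNA of several of these intervals can be read beside its values. The first 5 are the central 300 bases of the highest distal interval of Evx1, Gata2, Sim1, Dbx1 and Dbx2, the 5 genes for which that window held neither coding sequence nor an untranslated region (UTR). They are written 5′ to 3′ on the plus strand of GRCm38.p6, the patch release of mm10, and lie at chr6:52368856-52369155, chr6:88190128-88190427, chr10:51007882-51008181, chr7:49634174-49634473 and chr15:95609389-95609688 in that order. Capitals mark a match on either strand to 1 of 6 short motifs. The homeodomain core was TAATTA and the E-box was CAGCTG. The GLI core was GACCACCC and the SOX core was ACAAAG. For factors of the GATA family the letters were AGATAA, and for TALE homeodomain factors they were TGACAG. None of the 6 contains another.
Evx1 distal: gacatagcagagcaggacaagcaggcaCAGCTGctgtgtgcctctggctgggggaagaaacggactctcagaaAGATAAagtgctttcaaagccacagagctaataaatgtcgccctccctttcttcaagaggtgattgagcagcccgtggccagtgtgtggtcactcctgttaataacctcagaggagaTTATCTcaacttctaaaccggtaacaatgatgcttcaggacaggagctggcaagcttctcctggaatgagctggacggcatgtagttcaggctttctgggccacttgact
Gata2 distal: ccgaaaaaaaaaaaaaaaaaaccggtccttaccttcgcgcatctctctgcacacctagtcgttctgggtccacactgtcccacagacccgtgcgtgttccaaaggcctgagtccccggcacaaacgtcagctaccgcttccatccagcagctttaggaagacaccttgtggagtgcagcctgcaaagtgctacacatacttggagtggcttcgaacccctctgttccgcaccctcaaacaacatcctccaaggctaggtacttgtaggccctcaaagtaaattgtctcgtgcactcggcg
Sim1 distal: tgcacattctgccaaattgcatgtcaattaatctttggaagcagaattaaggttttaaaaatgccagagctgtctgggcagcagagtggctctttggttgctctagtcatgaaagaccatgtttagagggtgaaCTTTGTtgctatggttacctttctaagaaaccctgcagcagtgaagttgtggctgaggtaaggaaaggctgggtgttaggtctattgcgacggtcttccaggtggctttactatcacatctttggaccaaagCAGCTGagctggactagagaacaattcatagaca
Dbx1 distal: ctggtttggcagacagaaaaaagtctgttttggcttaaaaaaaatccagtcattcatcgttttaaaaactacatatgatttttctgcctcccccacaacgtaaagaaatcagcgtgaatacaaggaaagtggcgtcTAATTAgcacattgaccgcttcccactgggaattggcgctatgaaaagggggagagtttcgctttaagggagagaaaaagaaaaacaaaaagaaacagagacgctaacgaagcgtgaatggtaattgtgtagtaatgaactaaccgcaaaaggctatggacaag
Dbx2 distal: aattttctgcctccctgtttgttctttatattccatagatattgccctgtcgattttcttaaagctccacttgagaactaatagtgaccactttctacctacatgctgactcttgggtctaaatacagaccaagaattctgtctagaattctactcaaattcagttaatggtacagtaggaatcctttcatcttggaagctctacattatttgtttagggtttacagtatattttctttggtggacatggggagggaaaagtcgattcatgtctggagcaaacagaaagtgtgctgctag
The Evx1 window, intergenic DNA downstream of the gene, held 1 E-box and 2 GATA letters. The Sim1 window held 1 E-box and 1 SOX core, and the Dbx1 window, inside an intron of Dbx1, held 1 homeodomain core. The Gata2 window overlapped an exon of the noncoding RNA Gm38708 and, like the intergenic Dbx2 window, held none of the 6.

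The next 3 sequences are the 250 bases before the RefSeq start of Gata3, Evx2 and Evx1, which had the most and the least accessible starts among the 9 genes. They are written 5′ to 3′ on the strand of the gene in the same build, with the same use of capitals, and lie at chr2:9878601-9878850 (minus strand), chr2:74659558-74659807 (minus strand) and chr6:52313248-52313497 (plus strand).
Gata3 promoter: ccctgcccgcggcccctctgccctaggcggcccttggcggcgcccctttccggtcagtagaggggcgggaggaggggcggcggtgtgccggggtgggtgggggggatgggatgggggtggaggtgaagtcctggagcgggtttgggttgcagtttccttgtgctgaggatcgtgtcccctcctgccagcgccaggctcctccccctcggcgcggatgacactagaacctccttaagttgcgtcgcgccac
Evx2 promoter: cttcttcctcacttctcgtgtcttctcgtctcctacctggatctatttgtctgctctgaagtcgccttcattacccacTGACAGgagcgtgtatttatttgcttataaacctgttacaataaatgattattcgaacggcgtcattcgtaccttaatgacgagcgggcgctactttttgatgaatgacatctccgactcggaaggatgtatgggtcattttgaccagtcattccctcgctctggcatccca
Evx1 promoter: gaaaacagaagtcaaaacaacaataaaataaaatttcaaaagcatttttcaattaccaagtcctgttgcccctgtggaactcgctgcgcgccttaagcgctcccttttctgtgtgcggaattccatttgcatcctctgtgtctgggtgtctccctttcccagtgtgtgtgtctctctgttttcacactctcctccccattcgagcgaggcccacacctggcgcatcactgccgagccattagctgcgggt
The Evx2 promoter held 1 TALE homeodomain match, and the Gata3 and Evx1 stretches held no whole match. An E-box of Gata3 runs across the RefSeq start, so it is cut here and not in capitals. GC content was 70.0% for Gata3, 45.6% for Evx2 and 49.6% for Evx1.

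To ask how open the starts of these genes were in pMN-sorted cells, each library was scaled by its size factor and counts were divided by interval length, which gives a density in normalized counts per kb. Of the 9 genes, 7 had a TSS interval, against 67.0% of 21829 protein-coding genes. Dbx2 and Vsx1 had none. Gata3 was the only one of the 9 above the median start of all genes with a TSS interval, which was 853 per kb summed per gene. The other 6 lay between 218 and 633 per kb, at the 9.7th to the 34.8th percentile of those genes. The place of Gata3 rests on the choice of start. By the 5′ end of each gene, only its interval at 400 per kb covers a Gata3 start.

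Gata3, the V2b factor, had the most accessible start. Its interval at chr2:9878416-9879893 covered the 5′ UTR and upstream DNA, with densities of 1569 and 1596 per kb in replicates 1 and 2 (mean 1583 ± 19.2, SD, n = 2). This was 2.50 times the next highest TSS interval of the 9 genes. A second start, at chr2:9888970-9890058, is shared with the predicted gene 9230102O04Rik, so its counts cannot be split between them. It had 412 and 388 per kb (400 ± 16.5, SD, n = 2). Summed over both intervals, Gata3 reached 1081 ± 4.1 per kb (SD, n = 2), the 64.6th percentile of genes with a TSS interval.

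Sim1, the V3 factor, followed with 649 and 617 per kb (633 ± 22.8, SD, n = 2) at chr10:50894088-50895380. That interval covered the start of a Sim1 transcript upstream of the RefSeq start and ended 271 bases short of the RefSeq start itself. Gata2, which like Gata3 acts in V2b cells, had an interval at each of its starts. The upstream one, chr6:88193513-88194563, had 595 and 522 per kb (559 ± 51.5, SD, n = 2), and the downstream one, chr6:88197416-88199567, had 505 and 464 per kb (484 ± 29.5, SD, n = 2).

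Dbx1, the p0 progenitor factor, had 589 and 524 per kb (556 ± 46.2, SD, n = 2) over its start at chr7:49636673-49637134. En1, the V1 factor, had 494 and 435 per kb (464 ± 41.6, SD, n = 2) at chr1:120602004-120603955. The pairs Gata2 upstream and Dbx1, and Gata2 downstream and En1, overlapped between replicates and could not be ordered.

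The V0 factors Evx2 and Evx1 had the least accessible starts. Evx2 had 239 and 209 per kb (224 ± 21.2, SD, n = 2) at chr2:74657618-74659938. Evx1 had 228 and 209 per kb (218 ± 13.7, SD, n = 2) at chr6:52313384-52314682, where the antisense gene Evx1os also lies. The assay does not assign open DNA to a strand, so the interval belongs to both. The values of Evx1 and Evx2 overlapped, and both were below every other TSS interval of the 9 genes in both replicates. Evx1 and Evx2 lie at the ends of the HoxA and HoxD clusters, respectively.

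**Figure D1:**
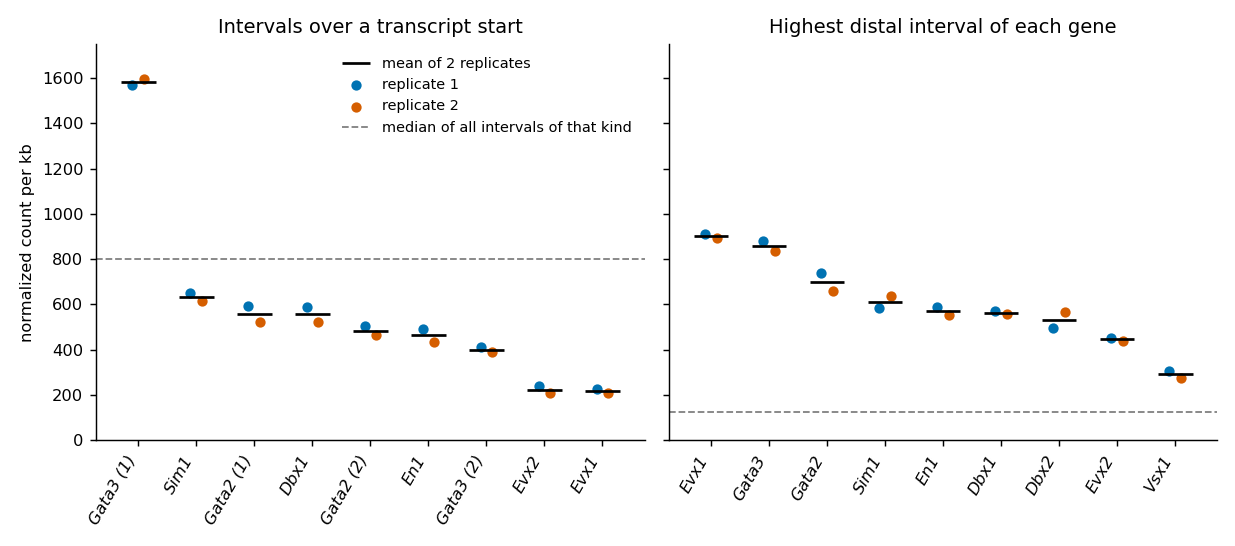
Normalized counts per kb (vertical axes, linear from 0) of each TSS interval (left) and of the highest distal interval of each gene (right). Points are replicates and bars their means. Dashed lines are the medians of all TSS intervals (left) and of all distal intervals (right), not only the highest of each gene. The median of the highest distal interval over all genes with one was 272 per kb. A highest value tends to rise with the number of intervals, with a median of 9 for the 9 genes and 3 for all protein-coding genes. The Vsx1 interval on the right covers the RefSeq start of Vsx1. Gata3 (1) and (2) are its intervals at 1583 and 400 per kb, Gata2 (1) and (2) those at 559 and 484 per kb, and only Gata3 (1) lies above the median TSS interval of 799 per kb.

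Dbx2 and Vsx1 lacked a TSS interval only under GENCODE starts. An interval at chr15:95652957-95654977, over a coding exon and UTR of Dbx2, came within 0.98 kb of the GENCODE start and covered the RefSeq start, which lies 1189 bases further into the gene. It had 437 and 468 per kb (452 ± 22.5, SD, n = 2). For Vsx1, the single interval, chr2:150688095-150689204, ended 156 bases from the GENCODE start and covered the RefSeq start. It had 307 and 275 per kb (291 ± 23.1, SD, n = 2). By RefSeq starts, 8 of the 9 genes had an interval over a start, all but Sim1. In bulk cells, fewer cells with an open site and a less open site in each cell cannot be told apart, and this holds for every density given here.

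The 9 genes differed in how many intervals they held, TSS intervals included. Gata3 had 48, En1 21, Sim1 16, Evx1 11, Dbx1 and Dbx2 9 each, Evx2 6, Gata2 5 and Vsx1 1. The stretch of genome in which Gata3 has the nearest protein-coding start spans 1260 kb, mostly the gene desert on its downstream side. Per 100 kb of such a stretch, Evx2 had the most intervals with 13.5, followed by Dbx1 with 8.53, Gata2 with 7.03, Dbx2 with 6.86, Evx1 with 5.80, En1 with 5.13, Gata3 with 3.81, Sim1 with 3.65 and Vsx1 with 2.48. Of the 117 distal intervals, 86 were intergenic, 17 intronic, 10 over a coding exon and 4 over a noncoding exon. The introns were those of any gene, among them Ascc3, Nav2 and noncoding RNA genes, and not only of the 9 genes.

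A mean normalized count over 100 was used to separate well-covered intervals from faint ones. Of the 126 intervals, 52 (41.3%) passed, against 38.8% of all intervals, so the share was close to the background. All 9 TSS intervals passed. Of the distal intervals, 43 of 117 (36.8%) passed, against 31.2% of all distal intervals. Gata3 accounted for 12 of the 52, En1 for 8, Dbx1, Dbx2, Evx1 and Sim1 for 6 each, Gata2 for 4, Evx2 for 3 and Vsx1 for 1. Without Gata3, 40 of 78 intervals (51.3%) passed. The median distal density was 134.6 per kb (133.4 and 133.0 in replicates 1 and 2), against 123.4 for all distal intervals.

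The share of distal intervals that passed was lower in each bin farther from the starts. Within 1 kb of a start 3 of 3 passed, from 1 to 5 kb 11 of 15 (73.3%), from 5 to 50 kb 18 of 36 (50.0%), from 50 to 200 kb 8 of 24 (33.3%) and beyond 200 kb 3 of 39 (7.69%). Over all distal intervals the same bins held 38.5%, 44.8%, 30.6%, 29.8% and 26.5%. The first 2 bins hold fewer than 20 intervals each. Gata3 supplied 31 of the 39 intervals beyond 200 kb, and without it 1 of 8 (12.5%) passed there.

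**Figure D2:**
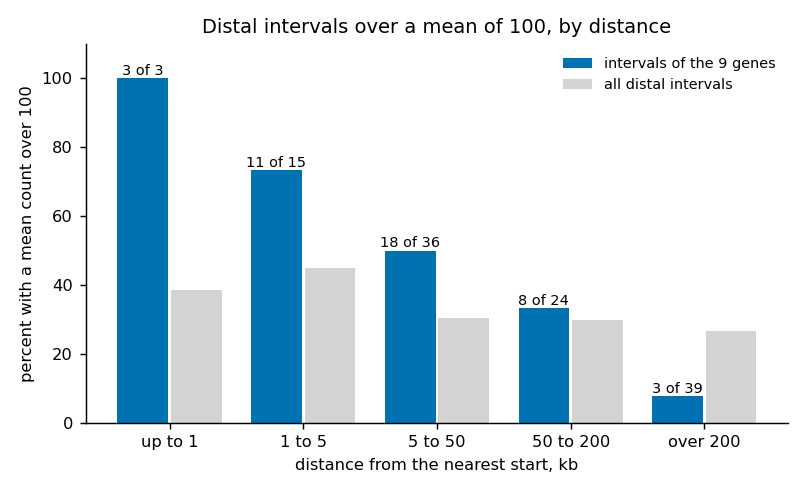
Percent of distal intervals with a mean normalized count over 100 (vertical axis) by distance from the nearest transcript start (horizontal axis, kb), for the 9 genes (blue, with counts) and for all distal intervals (grey). The share of the 9 genes goes from 3 of 3 within 1 kb to 3 of 39 beyond 200 kb, while that of all distal intervals goes from 38.5% to 26.5%. Counts are not scaled by interval length here.

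The most accessible distal interval of the set was assigned to Evx1, by nearest start only, and the start of Evx1 was itself among the least accessible. This interval lay at chr6:52368616-52369394, 55.1 kb downstream of the Evx1 start in intergenic DNA, and its center is printed above. Replicates 1 and 2 gave 709 and 695 counts, or 911 and 892 per kb (901 ± 13.2, SD, n = 2), the 97.6th percentile of distal intervals. Evx1 also had an interval 7.10 kb upstream, on the side of the HoxA cluster, with 467 and 407 per kb (437 ± 42.4, SD, n = 2). Its other well-covered distal intervals had 200 to 205 per kb.

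Evx2 had its highest distal interval inside the gene, at chr2:74655505-74656552 over a coding exon and UTR, with 452 and 440 per kb (446 ± 8.35, SD, n = 2). As at Evx1, this was above the density over the start. The other well-covered distal interval of Evx2 lay 1.60 kb upstream with 202 ± 21.9 per kb (SD, n = 2). A short interval of 260 bases farther upstream, chr2:74663557-74663816, was denser, with 354 and 369 per kb (362 ± 10.7, SD, n = 2). Its density was also above that over the Evx2 start in both replicates. Its mean normalized count of 94.0 fell below the limit of 100, which is not scaled by length.

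Gata3 had well-covered distal intervals on both sides of the gene. Its highest distal interval, chr2:9877370-9877665, lies over a coding exon, a UTR and the antisense gene Gm13256, with 882 and 834 per kb (858 ± 33.9, SD, n = 2). The intergenic interval chr2:9852785-9853804, 24.8 kb downstream, had 663 and 673 per kb (668 ± 7.24, SD, n = 2), and a short one of 189 bases 22.3 kb downstream had 532 ± 19.0 per kb (SD, n = 2). Upstream, intervals 6.04 and 7.33 kb away had 473 ± 0.27 and 371 ± 1.49 per kb (SD, n = 2 each). The 31 intervals over 200 kb away reached as far as 1204 kb, and 2 of them passed a mean of 100, 208 kb away with 317 ± 3.91 per kb and 361 kb away with 429 ± 9.13 per kb (SD, n = 2 each). One interval inside the Gata3 gene, with 472 ± 8.05 per kb (SD, n = 2), was nearest to the predicted gene 4930412O13Rik and is not among the 48.

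Gata2 had its highest distal interval 2.72 kb upstream, at chr6:88189384-88191170 over the noncoding RNA Gm38708. It had 737 and 657 per kb (697 ± 56.2, SD, n = 2), above both Gata2 starts in both replicates. The only other well-covered distal interval of Gata2 was over a coding exon, with 153 ± 0.88 per kb (SD, n = 2).

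Sim1 had a pair of intergenic intervals about 3 kb apart, 112 and 116 kb downstream. The nearer, chr10:51007770-51008293, had 582 and 635 per kb (609 ± 37.4, SD, n = 2), and the farther, chr10:51011161-51012142, had 386 and 358 per kb (372 ± 19.7, SD, n = 2). No Sim1 interval between these and 10 kb from the start passed a mean of 100. An intronic interval of 3100 bases had 218 ± 22.5 per kb (SD, n = 2).

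En1 had 3 distal intervals above 300 per kb, all within 5 kb of its start. The one over a coding exon and UTR, chr1:120606652-120607359, had 589 and 553 per kb (571 ± 25.3, SD, n = 2). Those 1.96 and 4.99 kb upstream had 478 ± 46.4 and 328 ± 18.9 per kb (SD, n = 2 each). Farther downstream, well-covered intervals lay 11.2, 41.0, 83.3 and 185 kb away, with 113, 126, 217 and 191 per kb. Those 41.0 and 83.3 kb away were in introns of the noncoding RNA 2610027F03Rik, and the others were intergenic.

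At Dbx1 the highest distal interval, chr7:49633402-49635245, lay inside the gene with 570 and 556 per kb (563 ± 9.91, SD, n = 2), within the range over its start. At Dbx2 the highest was intergenic, chr15:95608966-95610110, 45.9 kb downstream, with 495 and 567 per kb (531 ± 50.3, SD, n = 2). Dbx2 also had intronic intervals 15.9 and 18.6 kb from its start with 421 ± 30.6 and 246 ± 25.3 per kb (SD, n = 2 each). The remaining well-covered distal intervals of both genes were between 99.6 and 215 per kb, apart from the one at the RefSeq start of Dbx2 described above.

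In the order of highest distal intervals, Evx1, Gata3 and Gata2 came first, with replicate ranges that did not overlap. Sim1, En1, Dbx1 and Dbx2 followed, each overlapping its neighbour in the order. Evx2 and Vsx1 came last and were apart from the others and from each other, though the only Vsx1 interval covers the RefSeq start of Vsx1. With 2 replicates these orders describe the libraries and have no test.

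**Figure D3:**
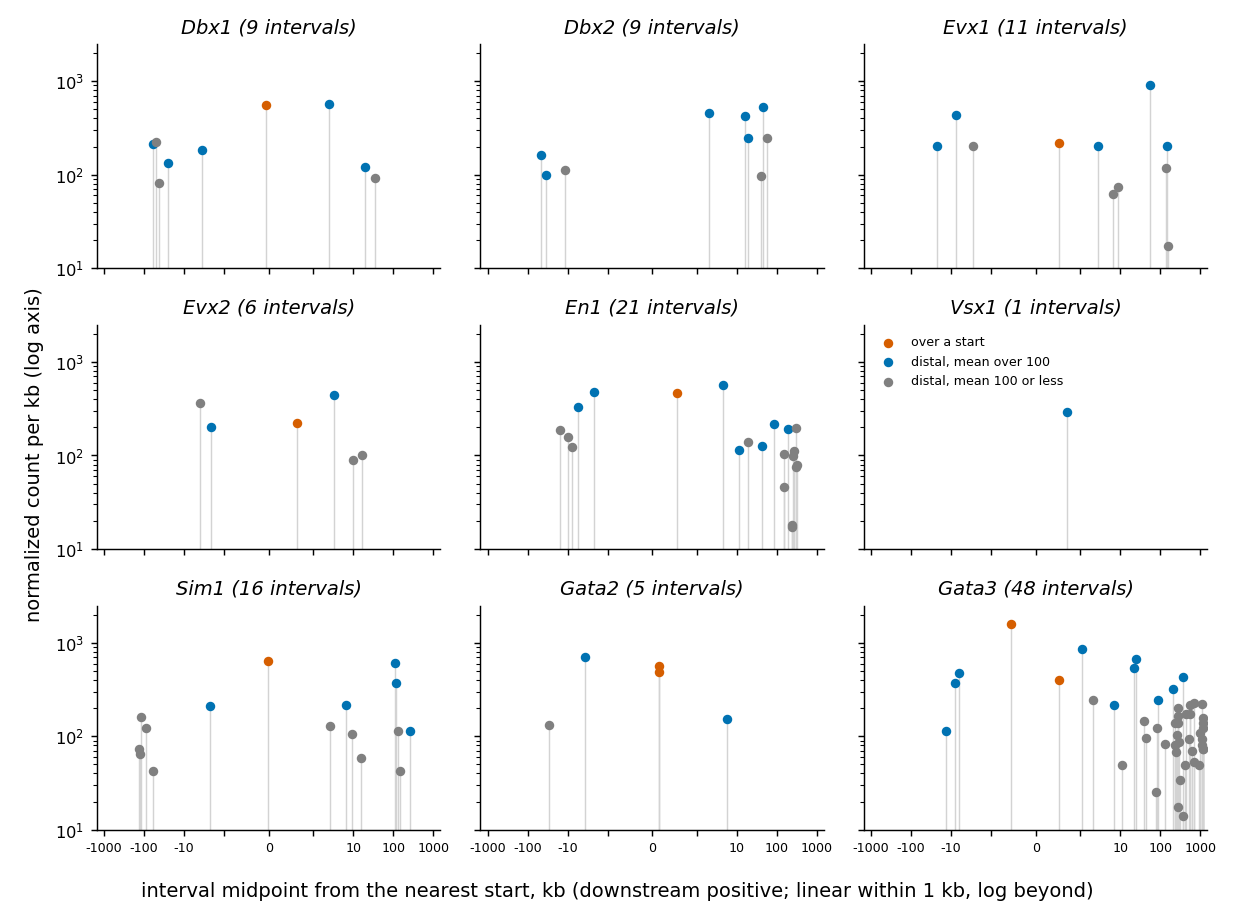
Density of each interval (vertical axes, normalized counts per kb, log scale) against the distance of its midpoint from the nearest transcript start (horizontal axes, kb, downstream positive, linear within 1 kb and logarithmic beyond), 1 panel a gene. Orange points are TSS intervals, blue points distal intervals with a mean over 100 and grey points those at 100 or less. Gata3 has 48 intervals, 31 of them beyond 200 kb, while Vsx1 has 1.

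Base composition was read for each interval, and an interval was called CpG-rich when it had over 50% GC, a ratio of observed to expected CpG over 0.6 and at least 200 bases. Of the TSS intervals of the 9 genes 8 of 9 were CpG-rich (88.9%), against 64.5% of all TSS intervals. The exception was the Gata3 start shared with 9230102O04Rik. Of the distal intervals 9 of 117 were CpG-rich (7.69%), against 2.00% of all distal intervals. Evx1 had 4 of the 9, En1 2, and Evx2, Gata2 and Gata3 1 each. Their median density was 446 per kb, against 389 for all 2095 CpG-rich distal intervals, and their median distance from a start 2.75 kb. The other 108 distal intervals had a median density of 123 per kb, close to the 122 of all distal intervals that were not CpG-rich.

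The 6 motifs were counted in the central 300 bases of each distal interval. E-boxes were in 18.8% of the windows of the 9 genes and 22.9% of all distal windows, SOX cores in 32.5% and 33.9%, GATA letters in 17.9% and 15.0%, TALE homeodomain letters in 23.9% and 25.9%, homeodomain cores in 9.40% and 7.79% and GLI cores in 0.855% and 0.994%. In these central windows each share of the 9 genes was within 5 percentage points of that of all distal windows. In whole intervals the SOX core was in 41.9%, against 48.2%, and among intervals over a mean of 100 it was in 27.9%, against 34.3%, and TALE homeodomain letters in 16.3%, against 24.0%. In the RefSeq promoters of the 9 genes, 250 bases before to 50 after a start, the E-box was in 4 of 10, against 16.3% of 32851 promoters. TALE homeodomain letters were also in 4 of 10, against 19.2%. The SOX core was in 2 of 10, against 18.7%, GATA letters in 1 of 10, against 11.2%, and the homeodomain and GLI cores in 0 of 10, against 5.29% and 0.807%. A match is a description of the letters only.

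To place the 9 genes beside other regulators, neural and non-neural, the same values were taken for 4 lists. The pMN and shared progenitor list (Olig2, Nkx6-1, Nkx6-2, Pax6, Irx3 and Sox2) holds the pMN factor Olig2. Nkx6-1, Pax6 and Sox2 are factors that pMN cells share with neighbouring progenitors. The list also holds Nkx6-2, and Irx3, a factor of the p2 domain. All 6 had a TSS interval, with a median density of 904 per kb and a range of 613 to 1452. Olig2 itself had 946 ± 23.2 per kb (SD, n = 2). The starts of Irx3 and of the p3 factor Nkx2-2, which is in none of the lists, had 1411 and 879 per kb, so a high density in this list is not particular to pMN factors. The motor neuron list (Mnx1, Isl1, Isl2, Lhx3 and Lhx4) had a median of 718, the list of 16 other interneuron factors 410, and the list of 10 regulators of non-neural lineages 249, counting genes with no TSS interval as 0. The 9 genes had 464 counted in the same way, against 491 for all protein-coding genes. Among genes with a TSS interval only, the medians were 509 for 7 of the 9 genes, 415 for 15 other interneuron factors and 442 for 6 non-neural regulators. That of all such genes was 853 per kb. Below it lay 6 of these 7 genes, 14 of the 15 interneuron factors, 3 of 5 motor neuron factors and all 6 non-neural regulators. Of the pMN list, 4 of 6 lay above it.

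The highest distal interval of each of the 9 genes lay between 291 and 901 per kb, with a median of 571. The low end is the only Vsx1 interval, which covers the RefSeq start of Vsx1, and the next lowest was Evx2 with 446 per kb. The highest distal intervals of the 6 pMN list genes lay between 1487 and 2935 per kb, with a median of 2027, so the ranges did not overlap. Of 15580 genes with a distal interval, 11.9% had one above 901 per kb, Nkx2-2 with 1186 per kb among them. The median of the highest distal interval over these 15580 genes was 272 per kb. The motor neuron list ranged from 321 to 800 per kb, within the range of the 9 genes only if Vsx1 is counted. Of the other interneuron factors 5 of 16 exceeded 901 per kb, and of the non-neural regulators 2 of 10. The non-neural list had a median of 309 and the other interneuron factors 687. These are descriptions of the lists in 2 libraries and were not tested. The lists also differ in the number of intervals per gene, with a median of 9 for the 9 genes, 25 for the pMN list and 3 for all protein-coding genes. A highest value tends to rise with the number of intervals it is taken from, so these medians, and that of all genes, are not like for like.

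**Figure D4:**
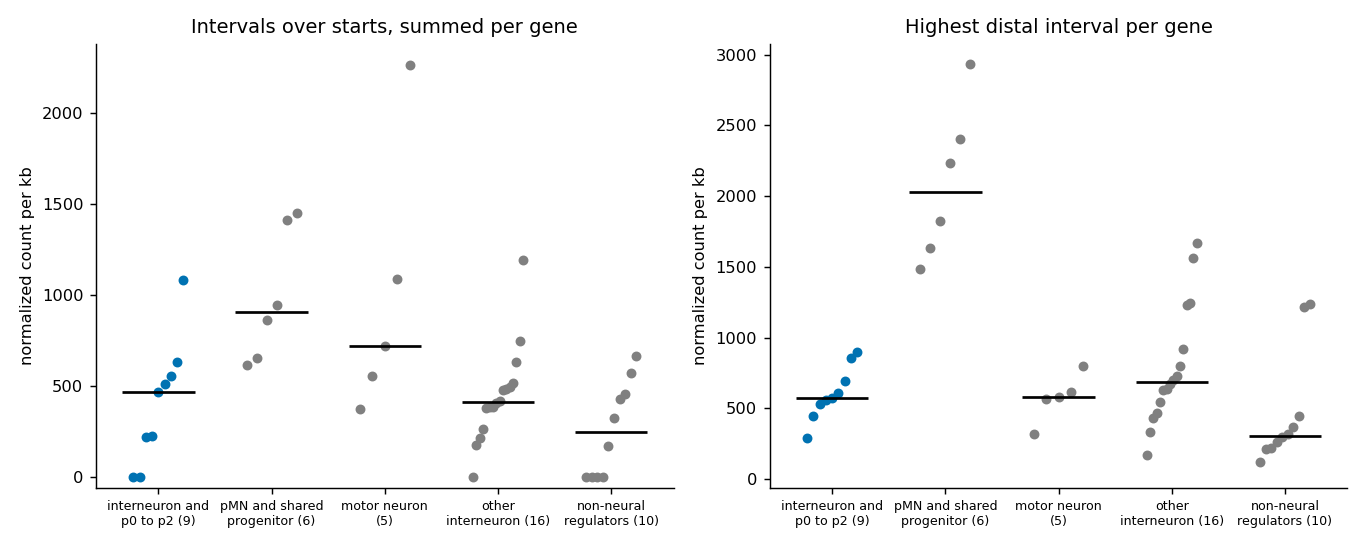
Density summed over the TSS intervals of each gene (left) and density of its highest distal interval (right), both in normalized counts per kb averaged over 2 replicates, with 1 point a gene and a bar at the median of each list. Points at 0 on the left are genes with no TSS interval. On the right all 6 pMN list genes lie above 901 per kb, the highest of the 9 genes.

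To see how far the 2 libraries set the values above, the counts of each interval were compared by a two-sided exact binomial test against the shares given by the size factors. This test compares the libraries, not conditions. None of the 126 intervals differed at an adjusted p under 0.01 (Benjamini-Hochberg over all 119502 intervals), where the background was 0% of all intervals. The lowest adjusted p of the exact binomial test among the 126 was 0.290. At an unadjusted p under 0.05, 16 of 126 (12.7%) differed, against 8.39% of all intervals. Of the 52 intervals over a mean of 100, none differed by more than 1.5-fold, and the SD of their log2 ratios was 0.16, against 0.14 for all such intervals.

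The largest log2 ratios of replicate 2 over replicate 1 among intervals over a mean of 100 were 0.39 for the Dbx1 interval 59.4 kb upstream, -0.32 for the Evx1 interval 21.6 kb upstream and 0.31 for the Dbx2 interval 45.7 kb upstream. Their counts were 126 and 165, 209 and 168, and 159 and 198. Of the 9 TSS intervals 8 were lower in replicate 2, and only the Gata3 interval at 1583 per kb was higher. Among all TSS intervals 66.6% were lower in replicate 2, and among all distal intervals 47.6%. The median log2 ratio was -0.13 over the 9 TSS intervals and -0.03 over all TSS intervals.

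**Figure D5:**
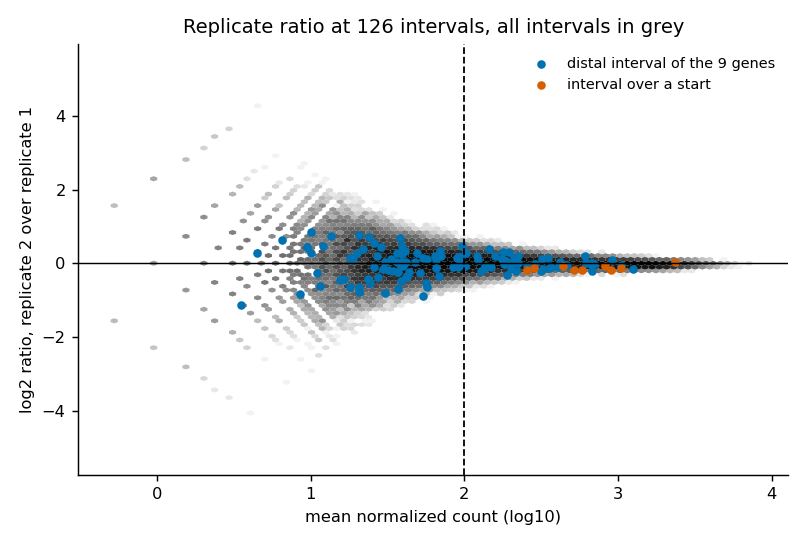
Log2 ratio of replicate 2 over replicate 1 (vertical axis) against mean normalized count (horizontal axis, log10), for the 117 distal (blue) and 9 TSS (orange) intervals, with all intervals as grey density and a dashed line at a mean of 100. The points narrow around 0 with rising count, and 8 of 9 orange points lie below 0.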

How the data were processed

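Live ATAC-seq of 2 replicates of 1 group was used. Per the file headers and the study's methods, the authors ran nf-core atacseq on mm10, called peaks, merged them into consensus intervals and counted read pairs with featureCounts 2.0.1 (overlap fraction 0.2, multiple overlaps allowed), and the deposited values are raw counts. A pair over 2 intervals counts in both. The table's 3 other sample columns belong to no sample used here and were not used, although they may have shaped the intervals. Interval lengths were as deposited.

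Counts were scaled by size factors from DESeq2 1.42.0 (R 4.3.3) and by length, with edgeR 4.0.16 TMM and total counts as alternatives. Intervals were assigned with GENCODE M21 to the nearest start of any protein-coding transcript, ties to every gene. The plan had named the 5′ end of each gene. This was changed after the files were seen, because it missed the main Gata3 start. Sequences are from RefSeq GRCm38.p6, whose coordinates equal mm10, and 10 RefSeq promoters matched the 9 genes.

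With 1 group no comparison of conditions, and no edgeR contrast, was possible. Replicates were compared by exact binomial tests (scipy 1.17.1), checked on simulated data. Log2 ratios had 0.5 added to each normalized count. Depths of 31876165 and 31672240 counts limit faint intervals most: the lowest counts among the 126 were 4 and 2. Named items were all 9 genes, their TSS intervals and highest distal interval, and the 3 largest replicate ratios. Values were known when further well-covered intervals of these genes were picked. The genes and lists were chosen with earlier results of these data known. Alternatives were other scalings, limits, start definitions, distances, motif windows and each replicate left out.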

Additional observations from a re-analysis of the deposited data

How the results depend on the processing

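Of 50 alternative values for the counts, medians, replicate calls and motif shares, 34 stayed within the spread or within 1.5 times the count. No value with a test crossed its threshold, and TMM and total-count scaling moved none of the 50. Some of the 34 could not have moved. With either replicate left out, the promoter median was judged by a spread taken from those same 2 replicates. The replicate test called no interval of the whole set, so the other assignments could call none. The number of intervals over a mean of 100 stayed between 51 and 53 with either replicate left out, 72 passed at a limit of 50 and 36 at 200.

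The definition of a start changed which intervals were assigned more than how many. With the 5′ end of each gene, the total was 129 intervals, but Dbx1 had 46 (38 inside Nav2) in place of 9 and Gata3 14 in place of 48, the median promoter density was 399.9 in place of 464 per kb and the median distal density 138.7 in place of 134.6. Chosen after seeing the data, leaving out Gata3 gave 78 intervals and a median distal density of 138.6, and a limit of 200 kb on distance gave 87 intervals, 17 of them of Gata3, and a median distal density of 161.2. RefSeq starts gave a median promoter density of 452 per kb.

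The median promoter density was 435 and 494 per kb with replicate 1 or 2 left out, and the median distal density 133.0 to 133.4. It was 140.3 with a mean of at least 10. As counts per interval the medians were 520 at promoters and 57.5 at distal intervals. In whole intervals, which are longer, shares rose to 36.8% (E-box), 41.9% (SOX core), 29.1% (GATA) and 39.3% (TALE homeodomain), against 36.2%, 48.2%, 24.6% and 40.3% of all distal intervals. Among distal intervals over a mean of 100 the TALE share was 16.3% (24.0% of all such windows) and the GLI share 0% (1.12%), of 43 windows. No replicate difference was called under TMM, total counts, either other assignment, a mean of at least 10 or a limit of 0.05. No paired analysis was possible because there is 1 group.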
